A study of Homo sapiens with 9 samples.

Results

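RNA levels at the end of a splicing block were set against those 24 h later in the human line MDA-MB-231, which was derived from a triple-negative breast cancer. All genes were compared between 3 libraries collected after 24 h of recovery from pladienolide B (PdB) and 3 libraries collected at the end of the PdB period, 6 of the 9 libraries of the series. The PdB group had received 10 nM PdB for 16 h. The recovery group had received the same dose for the same time and was then left for 24 h, and the labels do not describe how the drug was removed. The other 3 libraries came from cells given DMSO, the vehicle, and their levels are printed beside the members. Of 60708 genes in the deposited table, 20812 had enough counts to be tested. The question, from the design text, was which genes move once the drug period is over. No DMSO group of the later time is named in the labels, so recovery from the drug and the later time of collection cannot be told apart.

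PdB is a macrolide that binds the SF3B complex of the U2 snRNP, the particle of the spliceosome that recognises the branch point of an intron. When SF3B is blocked, introns stay in pre-mRNA or exons are skipped, many such transcripts are retained in the nucleus or degraded, and proteins of short half-life run low. Genes without introns do not need the spliceosome, and transcripts of genes with many introns pass through it many times.

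The libraries held 56389689 to 64022867 counts in PdB and 57799058 to 62020549 at recovery. Across genes, which are not independent replicates, pairs of libraries within a group had r of 0.975 to 0.977 in PdB and 0.986 to 0.988 at recovery, and pairs across the groups r of 0.921 to 0.930. Levels are given as CPM, the count of a gene relative to the total of its library after TMM scaling (trimmed mean of M values), in the order of replicates 1, 2 and 3. Log2 changes are recovery minus PdB ± SE unless another pair is named, with 3 libraries a group. Changed, rose and fell are used for genes with a Benjamini-Hochberg adjusted p under 0.05 in edgeR's quasi-likelihood test across all genes tested. Whether the replicates came from separate cultures is not stated in the labels, and the p-values therefore measure the spread between these libraries, which may be technical. No spike-in is named in the labels, so a change in RNA per cell, or in the share of cells that express a gene, cannot be told from a change in the level of its RNA relative to others. As a check of the labelled line, VIM, the intermediate filament of mesenchymal cells, stood at 2812, 2892 and 2909 CPM in DMSO, and ESR1, the oestrogen receptor gene, had 0 counts in all groups.

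Most genes tested moved after the drug period. Of 20812 genes, 13767 changed (66.1%), of which 7204 rose (34.6%) and 6563 fell (31.5%). By at least 2-fold, 4092 rose (19.7%) and 2752 fell (13.2%). The recovery libraries lay entirely above or below the PdB libraries in 14671 genes, 70.5% of those tested. The median log2 change was 0.06 and the median absolute change 0.78. The split depended on the scaling, since with library totals in place of TMM factors the median was 0.33 and 8862 genes rose and 4876 fell, so that 64.5% of the changed genes were higher, against 52.3% with TMM. The share was 50.2% with RLE and 49.1% with upper-quartile factors (6768 rose and 7021 fell), and 47.3% among genes averaging at least 50 counts (5839 and 6505). Changes are therefore read against the median of all genes.

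**Figure D1:**
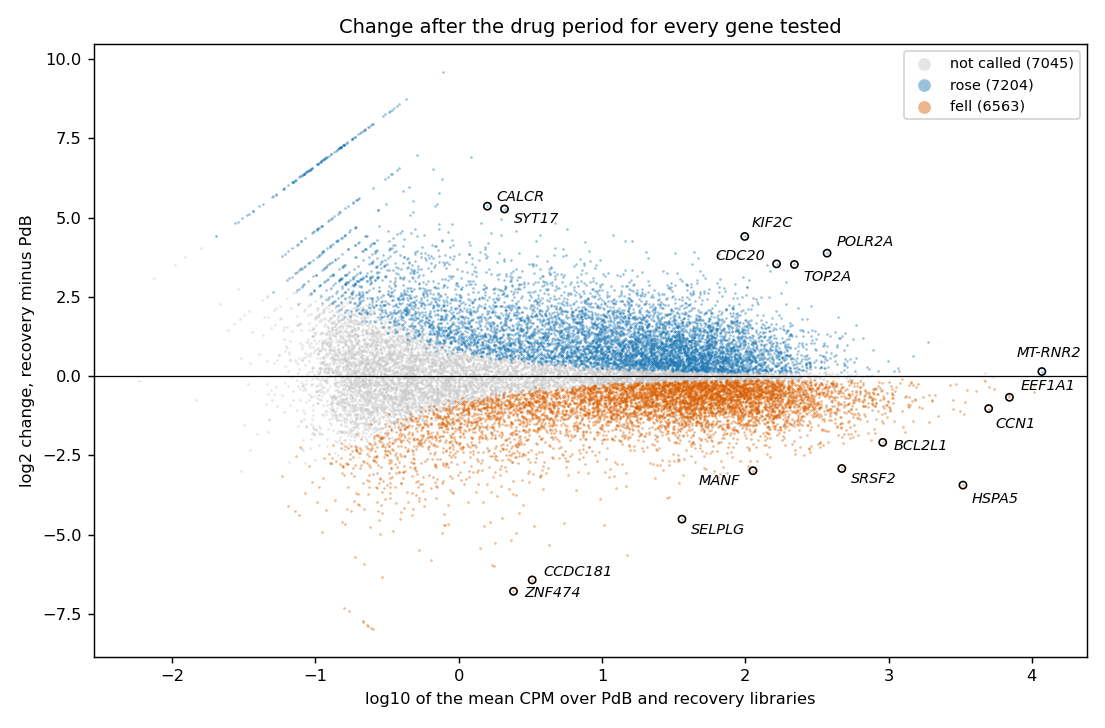
Change after the drug period for each of the 20812 genes tested. The x axis is the log10 of the mean CPM over PdB and recovery libraries, the y axis the fitted log2 change, recovery minus PdB, and circles mark 16 named genes. Blue points rose (7204), orange points fell (6563) and grey points were not called. KIF2C and POLR2A stand far above 0 at high levels and HSPA5 and SRSF2 far below it. Diagonal rows at the left hold genes with 0 or a few counts in one group, among them 123 tested genes with no count in any PdB library, whose fitted change depends on the prior count.

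The genes were grouped into 40 lists by what they are known to do. Cell division, DNA replication, nuclear transport and interferon genes lay mostly to the rising side. Chaperones of the endoplasmic reticulum (ER), ribosomal proteins, nuclear genes of oxidative phosphorylation, antioxidant genes and SR splicing factors lay mostly to the falling side. Median log2 changes ran from -1.29 for ER chaperones and folding to 1.71 for the thinly expressed fibroblast and endothelial markers, against 0.06 for all genes. The shares over all genes include lncRNA genes, of which 22.2% rose and 19.7% fell. Of protein-coding genes 40.4% rose and 36.1% fell, and lists near those shares are given as counts only. DMSO values are set beside members and lists below, and the comparison of recovery with DMSO shares the recovery libraries with that of recovery with PdB. In that comparison 12746 genes changed (61.2%), 30.7% of the genes tested being higher at recovery and 30.5% lower. Changes of PdB relative to DMSO share the PdB libraries with the main comparison, with opposite sign. Opposite directions in these 2 comparisons are therefore partly built in.

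**Figure D2:**
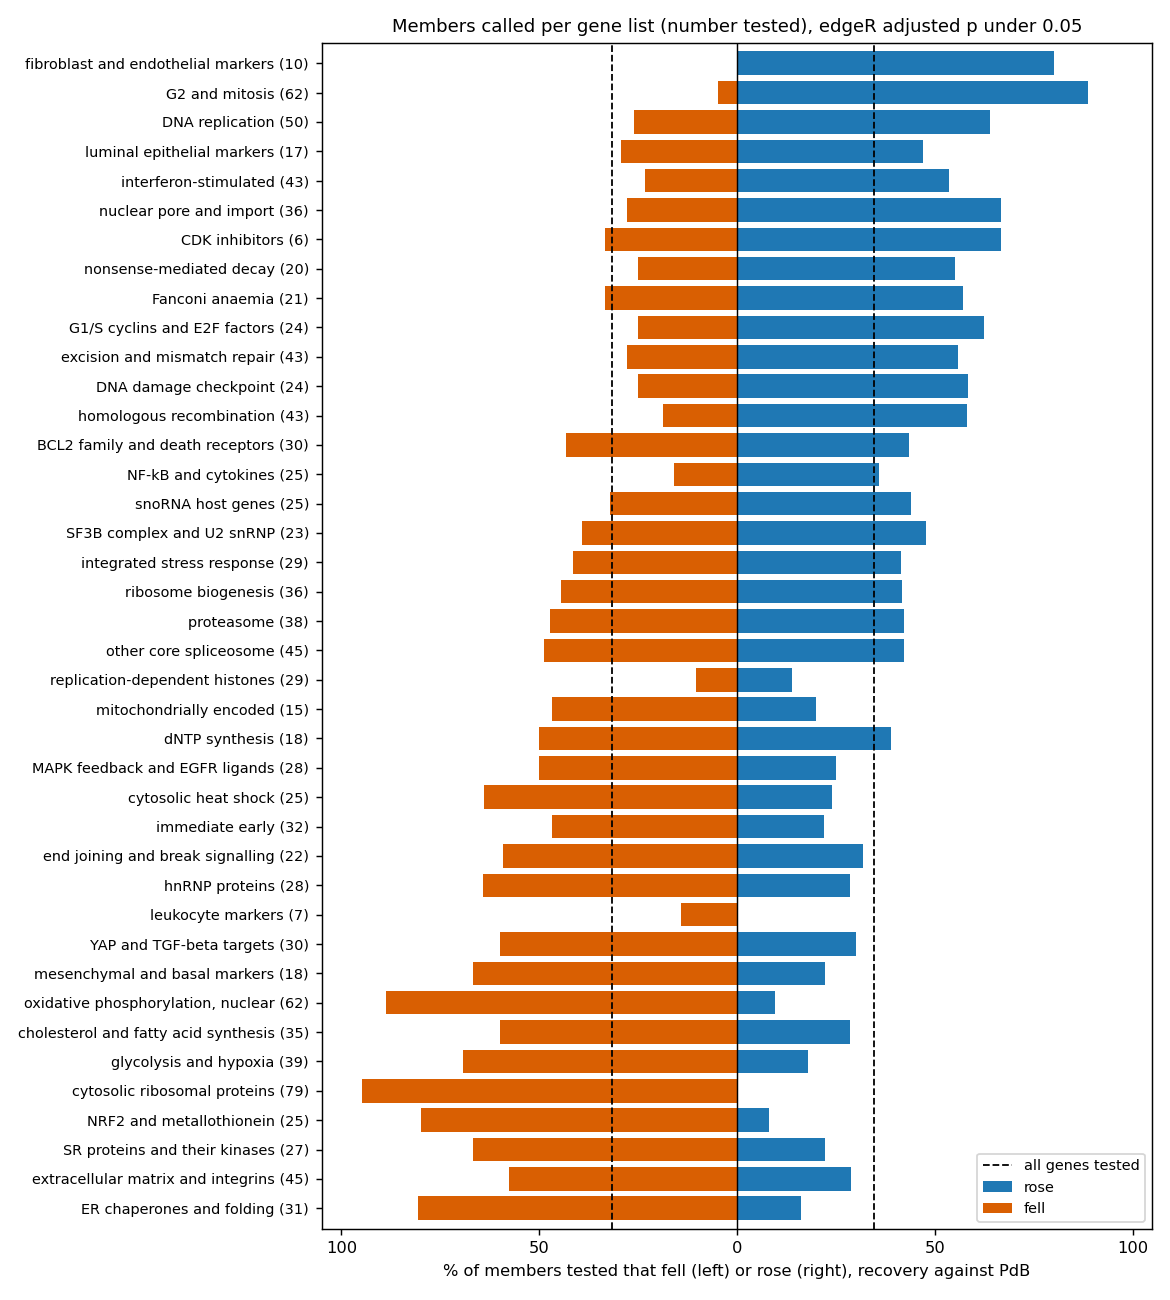
Share of the tested members of each of the 40 lists that rose (blue, to the right) or fell (orange, to the left) between the end of PdB and 24 h of recovery, ordered by median log2 change, with the number tested in brackets. The dashed lines are the shares over all genes tested, 34.6% higher and 31.5% lower. Among protein-coding genes alone the shares were 40.4% and 36.1%. G2 and mitosis is far to the right of its line, with 55 of 62 members higher, and cytosolic ribosomal proteins far to the left, with 75 of 79 lower.

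Genes of G2 and mitosis rose together. Of 62 members, 55 rose and 3 fell, with a median log2 change of 1.57, against -1.83 during PdB relative to DMSO. The kinesin KIF2C (ENSG00000142945.13, chromosome 1), which shortens microtubules at kinetochores, stood at 8.46, 10.4 and 7.86 CPM in the PdB libraries and 194, 187 and 188 at recovery, a log2 change of 4.41 ± 0.080 (adjusted p = 1.7e-17). TOP2A (ENSG00000131747.15, chromosome 17, 40388516 to 40417950), the topoisomerase that untangles sister chromatids, went from 35.3, 35.1 and 35.4 to 413, 398 and 404 CPM (3.52 ± 0.050). CDC20, the activator of the anaphase-promoting complex, went from 25.9, 27.2 and 25.3 to 316, 309.6 and 289 CPM (3.54 ± 0.063). The groups were far apart in all of these genes, with little spread inside each group. AURKA, the centrosomal kinase of spindle assembly, went from 24.2, 22.3 and 21.9 to 273, 259 and 250.3 CPM, and KIF20A, a kinesin of the central spindle, from 24.9, 29.4 and 27.4 to 275, 273 and 258 CPM.

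Other members that rose act at the spindle checkpoint and the kinetochore. BUB1, BUB1B and TTK, kinases of the checkpoint, changed by 2.82, 3.2 and 3.31. NDC80, SPC24 and CENPE, which link microtubules to kinetochores, changed by 2.8, 2.67 and 3.04. NCAPH and NCAPG, subunits of condensin, changed by 3.08 and 2.48, and ECT2, which starts cytokinesis, by 2.48. The levels reached differed between members. At recovery TOP2A was below its DMSO libraries at 717, 690.1 and 651 CPM, whereas AURKA and KIF20A were above theirs, at 187, 191 and 179 and 169, 167 and 159.8 CPM. Against DMSO, 22 of the 62 members were higher at recovery and 28 lower.

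A few members did not follow. CENPF, a kinetochore protein, was not called (0.12 ± 0.075, adjusted p = 0.18). CDK1, the kinase that drives entry into mitosis, stood at 179, 199.5 and 162 CPM in PdB and 178, 187 and 166 at recovery (-0.02 ± 0.065, adjusted p = 0.77), and the groups overlapped. With library totals CDK1 was called as a rise (0.25, adjusted p = 0.00148). CCNB1, its cyclin, changed by 0.16 ± 0.054 (adjusted p = 0.014), and it was not called with RLE factors (0.11, adjusted p = 0.0997), without PdB replicate 3 (0.11, adjusted p = 0.0604) or without recovery replicate 1 (0.15, adjusted p = 0.0575). Falls were seen in BIRC5 (-0.64 ± 0.050), which encodes survivin, in FOXM1 (-0.3 ± 0.051), a transcription factor of mitotic genes, and in MKI67 (-0.19 ± 0.070), the Ki-67 proliferation marker. The direction of MKI67 turned with library totals (0.07), and it was not called without PdB replicate 3 (-0.11, adjusted p = 0.126), recovery replicate 1 (-0.17, adjusted p = 0.091) or recovery replicate 2 (-0.18, adjusted p = 0.068). With library totals FOXM1 was not called (-0.03, adjusted p = 0.547).

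The RefSeq promoters of this list and of all genes (GRCh38.p14, 250 bases before the start to 50 after it) were searched for the cell cycle homology region, TTTGAA or TTCGAA on either strand. It stood in 38 of the 50 members with a promoter entry (76.0%) and in 19.5% of 27305 genes. Of the 38 members with it, 34 rose and 1 fell (median 1.58), and of the 12 without it, 11 rose and 0 fell (median 2.03). Of all 1944 tested genes with it, in the list or not, 41.1% rose and 31.2% fell (median 0.16). A match is a description of the letters and not a site shown to be bound. Stretches from the promoters of 5 strong risers are printed 5′ to 3′ on the strand of the gene, to show the shared element, with the element in capitals (TTCAAA is its reverse complement):
CDC20, chr1:43358783-43358941, plus strand: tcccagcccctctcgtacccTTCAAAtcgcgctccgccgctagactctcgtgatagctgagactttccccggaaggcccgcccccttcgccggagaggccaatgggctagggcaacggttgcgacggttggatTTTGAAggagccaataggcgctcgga
TOP2A, chr17:40418022-40418110, minus strand: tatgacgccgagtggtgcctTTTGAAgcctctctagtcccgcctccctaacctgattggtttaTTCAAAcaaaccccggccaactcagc
BUB1B, chr15:40161026-40161068, plus strand: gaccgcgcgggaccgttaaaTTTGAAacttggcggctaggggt
CDCA8, chr1:37692473-37692515, plus strand: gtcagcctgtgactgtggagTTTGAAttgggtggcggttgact
ECT2, chr3:172750591-172750636, plus strand: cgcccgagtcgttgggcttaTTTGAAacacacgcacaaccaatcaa
CDC20 and TOP2A hold 2 matches each and the others 1. CDCA8, borealin of the chromosomal passenger complex, went from a mean of 19.97 to 174 CPM.

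DNA replication genes mostly rose, with exceptions. Of 50 members, 32 rose and 13 fell (5 with library totals), with a median of 0.84. RFC4, a subunit of the clamp loader, stood at 5.68, 3.75 and 5.34 CPM in PdB and 51.4, 46.8 and 47.7 at recovery (3.3 ± 0.11, adjusted p = 1.7e-14). PCNA, the sliding clamp it loads, went from 19.3, 18.4 and 16.8 to 127, 121 and 122 CPM (2.77 ± 0.061). At recovery RFC4 overlapped its DMSO libraries at 51.3, 54.1 and 54.4 CPM, and PCNA lay below its own at 150.2, 157 and 159.8. The primase subunit PRIM1 changed by 2.17, the kinase CDC7, which fires origins, by 2.23, the licensing factor CDC6 by 2.0 and CLSPN, the claspin adaptor of the checkpoint, by 2.03.

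Several polymerase genes were among the 13 falls. POLD1, the catalytic subunit of polymerase delta, went from 139, 139 and 111 CPM to 67.9, 61.97 and 62.3 (-1.02 ± 0.074), below its DMSO libraries at 142, 150.2 and 144 CPM. POLA1, that of polymerase alpha, went from 47.3, 56.8 and 50.2 to 28.1, 25.3 and 25.1 CPM (-0.97 ± 0.075), while its partner POLA2 rose with a log2 change of 2.03. POLD2, an accessory subunit of polymerase delta, also fell (-0.9 ± 0.049), and POLE, the catalytic subunit of polymerase epsilon, changed by -0.18 ± 0.059. The flap nuclease FEN1 (-0.43 ± 0.049) and the ligase LIG1 (-0.27 ± 0.063), which finish lagging strands, fell. POLA1 was already below DMSO (86.8, 89.5 and 79.8 CPM) at the end of PdB and was lower still 24 h later. Of the MCM2 to MCM7 helicase subunits, MCM4 (1.51), MCM2 (1.04), MCM6 (0.65) and MCM7 (0.25) rose, and MCM3 (-0.32) and MCM5 (-0.16) fell. All of these helicase genes were below their DMSO libraries at recovery.

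The E2F site, searched as TTTCGCGC or TTTGGCGC on both strands, stood in 13 of 43 replication promoters (30.2%). It stood in 1.40% of all genes and 2.32% of those tested. With the site, 8 of 13 members rose and 3 fell (median 0.65), and without it 21 of 30 rose and 7 fell (median 0.91). Of all 287 tested genes with the site, in the list or not, 40.8% rose and 35.5% fell (median 0.08). The members with the site that fell were POLA1 (-0.97), MCM3 (-0.32) and POLE (-0.18). Stretches are shown from 4 promoters, picked only among members that rose, with the element in capitals:
POLA2, chr11:65261889-65261936, plus strand: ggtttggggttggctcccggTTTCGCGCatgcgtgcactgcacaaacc
GMNN, chr6:24775313-24775360, plus strand: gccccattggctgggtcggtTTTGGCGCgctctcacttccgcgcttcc
MCM6, chr2:135876502-135876615, minus strand: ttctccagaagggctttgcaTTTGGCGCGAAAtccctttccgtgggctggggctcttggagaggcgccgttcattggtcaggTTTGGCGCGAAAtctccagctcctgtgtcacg
MCM7, chr7:100101398-100101426, minus strand: cggtcacgtggggggcgacgTTTCGCGCc
MCM6 has 4 matches that overlap in pairs, one on each strand, so its capitals run past a single element. GMNN, the geminin inhibitor of licensing, went from a mean of 28.7 to 60.4 CPM.

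Enzymes that make DNA precursors were mixed, 7 of 18 rising and 9 falling with a median of -0.19, or 0.08 with library totals. TK1, thymidine kinase, went from 237, 237 and 229 to 95.96, 93.6 and 93.1 CPM (-1.31 ± 0.047). In DMSO its level was 202, 217 and 216 CPM, so the 3 recovery libraries were the lowest of the 9. CTPS1, the CTP synthase, rose from 20.3, 23.04 and 21.7 to 67.1, 67.2 and 73.1 CPM (1.67 ± 0.068). Against DMSO, 13 of the 18 members were lower at recovery and 2 higher.

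Among cyclins and E2F factors of the G1/S step, 15 of 24 rose and 6 fell (median 0.42). E2F3, an activating E2F, went from 380.0, 412 and 403 to 81.7, 85.4 and 84.5 CPM (-2.25 ± 0.049) and E2F2 from 45.5, 45.4 and 53.8 to 25.6, 24.99 and 23.2 CPM (-0.97 ± 0.084). E2F1 moved the other way, from 38.7, 38.9 and 37.4 to 69.1, 70.9 and 67.9 CPM (0.85 ± 0.055). RB1, the pocket protein that holds E2F factors, rose from 8.99, 8.69 and 7.11 to 33.7, 34.9 and 31.4 CPM (2.01 ± 0.084) but stood at 79.2, 75.2 and 78.8 in DMSO. CDC25A, the phosphatase that activates CDK2, rose to 82.8, 79.9 and 75.6 CPM from 17.9, 20.4 and 19.9, above DMSO at 47.8, 48.8 and 50.7. CCNE1, cyclin E1, changed by 0.5 ± 0.11 (adjusted p = 4.1e-04).

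Of 6 CDK inhibitor genes tested of 7, 4 rose and 2 fell. CDKN1A, which encodes p21, went from 6.46, 5.897 and 6.86 to 58.4, 58.00 and 66.2 CPM, a log2 change of 3.25 ± 0.10 (adjusted p = 7.9e-15), above its DMSO libraries at 38.8, 37.4 and 47.7. CDKN3, a phosphatase of CDK2, fell from 49.04, 49.02 and 40.6 to 25.1, 23.9 and 21.6 CPM (-0.97 ± 0.079), and CDKN1B, which encodes p27, from 59.5, 60.8 and 51.96 to 37.7, 35.8 and 36.9 CPM (-0.64 ± 0.069).

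**Figure D3:**
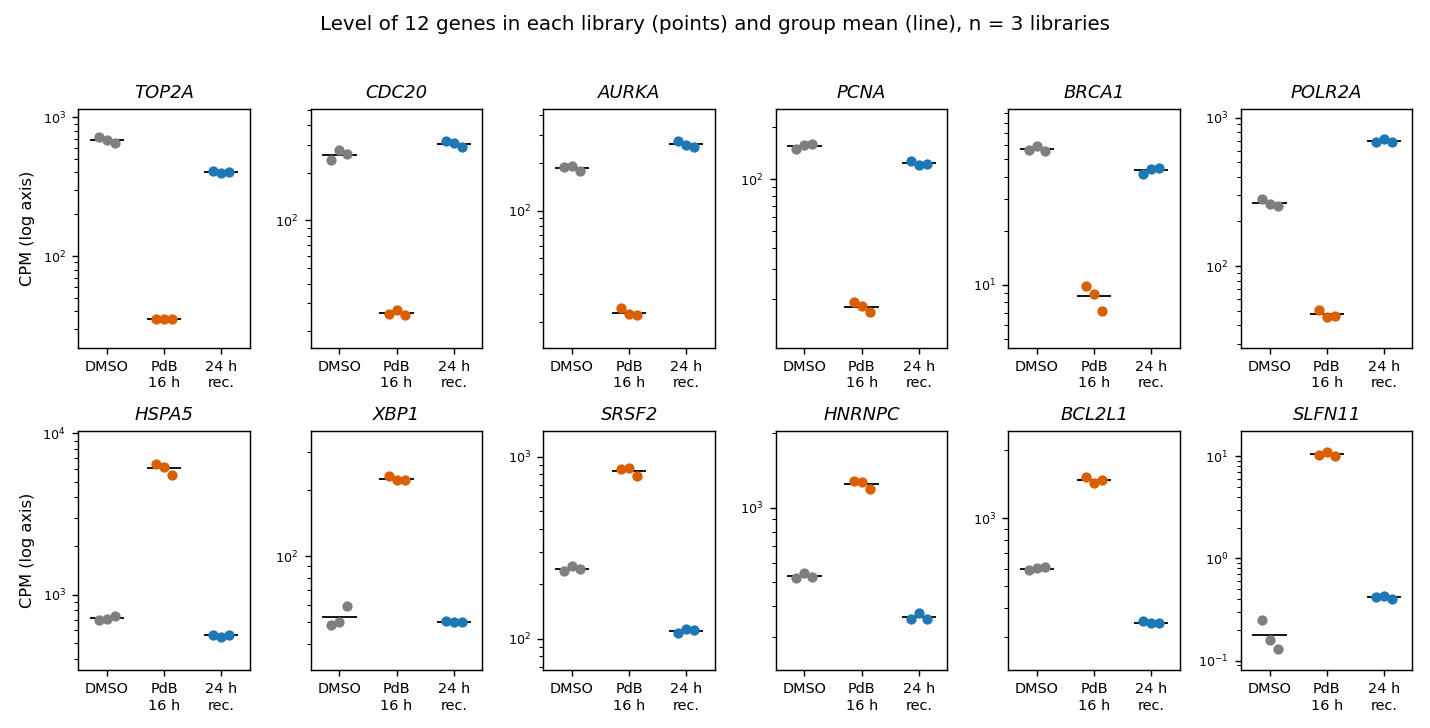
CPM of 12 genes in each library (points, log axis, a scale of its own for each gene) with the mean of each group (line), for DMSO (grey), the end of 16 h PdB (orange) and 24 h recovery (blue). In the top row the recovery libraries are above the PdB libraries in every gene, and CDC20, AURKA and POLR2A are also above DMSO. In the bottom row the recovery libraries are below the PdB libraries in every gene, and HSPA5, SRSF2, HNRNPC and BCL2L1 are also below DMSO.

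ER chaperones fell by more than any other list in the median. Of 31 members, 25 fell and 5 rose (median -1.29). HSPA5 (ENSG00000044574.9, chromosome 9, 125234853 to 125241330), the BiP chaperone of the ER lumen, stood at 6449.6, 6173 and 5536 CPM in PdB and 563, 549 and 566 at recovery. The means differed 10.8-fold, a log2 change of -3.44 ± 0.053 (adjusted p = 2.9e-18), and recovery ended below the DMSO libraries at 699.8, 709 and 739.6 CPM. MANF, a protein secreted under ER stress, went from 211, 215 and 177 to 22.7, 26.9 and 26.6 CPM (-2.98 ± 0.087), also below DMSO at 50.2, 44.00 and 43.1. XBP1, the transcription factor whose mRNA is cut by IRE1, went from 233, 224 and 222 to 50.8, 50.3 and 50.4 CPM (-2.17 ± 0.065) and overlapped DMSO at 48.7, 50.2 and 59.2.

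Folding enzymes and cofactors went the same way. CRELD2 changed by -2.79, the co-chaperone DNAJB9 by -2.52, the disulfide isomerase PDIA4 by -2.11, HERPUD1, of ER-associated degradation, by -2.09, HSP90B1, the ER form of HSP90, by -1.67 and CALR, calreticulin, by -1.59. The sensor ERN1, which encodes IRE1, rose from 9.45, 10.7 and 12.9 to 38.9, 38.99 and 37.1 CPM (1.8 ± 0.10), and DERL1, of the retrotranslocation channel, from 70.03, 69.7 and 65.6 to 140.2, 143 and 137 CPM (1.03 ± 0.050). The other sensors of unfolded protein were ATF6 (0.2 ± 0.052), which rose, and EIF2AK3, which encodes PERK and stands in the integrated stress response list (-1.29 ± 0.073), which fell. Against DMSO, 19 of the 31 members were lower at recovery and 9 higher.

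The ER stress response element, CCAAT and CCACG with 9 bases of any kind between them, on either strand, stood in 8 of 28 promoters of the list (28.6%) and in 0.0916% of all genes. Of the 8 members with it 7 fell and 0 rose (median -1.63), and of the 20 without it 16 fell and 4 rose (median -1.11). Of all 16 tested genes with it, these 8 included, 56.2% fell and 25.0% rose (median -0.57). The element is shown in capitals in 5 members that fell (its reverse complement begins with CGTGG and ends with ATTGG):
HSPA5, chr9:125241371-125241429, minus strand: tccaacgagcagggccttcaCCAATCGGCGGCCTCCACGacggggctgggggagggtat
CRELD2, chr22:49918534-49918592, plus strand: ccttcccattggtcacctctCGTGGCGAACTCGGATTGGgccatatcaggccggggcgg
XBP1, chr22:28800583-28800641, minus strand: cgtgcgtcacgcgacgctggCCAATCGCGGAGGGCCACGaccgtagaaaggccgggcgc
HSP90B1, chr12:103930301-103930359, plus strand: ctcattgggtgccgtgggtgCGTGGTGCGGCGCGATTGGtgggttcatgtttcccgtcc
CALR, chr19:12938364-12938422, plus strand: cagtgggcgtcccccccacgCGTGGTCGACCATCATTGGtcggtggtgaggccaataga
In HSPA5 and XBP1 the element reads forward, and in the other 3 on the opposite strand.

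The integrated stress response list, which covers the ATF4 branch, split evenly, 12 of 29 tested (of 31) rising and 12 falling. Its median of 0.01 was -0.05 with RLE factors, -0.07 with upper-quartile factors, but 0.27 when library totals were used. CEBPB, a partner of ATF4, fell from 119, 109.7 and 103 to 34.3, 37.9 and 41.98 CPM (-1.54 ± 0.085), and DDIT3, which encodes CHOP, from 53.4, 58.7 and 59.4 to 22.1, 23.2 and 21.3 CPM (-1.36 ± 0.080). Both ended above DMSO, at 21.8, 24.8 and 27.1 and 10.3, 12.3 and 11.9 CPM. ATF4 changed by -0.28 ± 0.058 (-0.01 with library totals), whereas ATF3, a repressor induced by stress, rose further, from 28.2, 27.8 and 26.8 to 46.3, 47.9 and 47.5 CPM (0.78 ± 0.079), with 5.59, 6.42 and 7.05 in DMSO. CTH, an enzyme of cysteine synthesis, rose from 1.86, 1.87 and 2.61 to 19.3, 18.6 and 21.8 CPM (3.24 ± 0.17). The CARE element (TGATGCAA or TGATGAAA, both strands) stood in 5 of 26 promoters (19.2%), against 2.44% of all genes.

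Of 25 cytosolic heat shock genes tested of 26, 16 fell and 6 rose (11 and 9 with library totals), with a median of -0.28. HSPA1B, an inducible HSP70, fell from 120.1, 98.9 and 117 to 49.2, 46.2 and 50.2 CPM (-1.21 ± 0.069), but its reads can be shared with the near-identical HSPA1A and its value is uncertain. HSP90AA1 (-0.79) and HSPA8 (-0.75), abundant cytosolic chaperones, fell. HSPH1, which exchanges nucleotide on HSP70, rose from 146, 136 and 128 to 384, 384 and 345 CPM (1.44 ± 0.057). The heat shock element, GAA, TTC and GAA with 2 bases of any kind between neighbours, on either strand, stood in 8 of 23 promoters (34.8%) and in 0.608% of all genes. Members with it numbered 7 falls and 0 rises of 8 (median -0.48) and those without it 7 falls and 6 rises of 15 (median -0.06). Of all 61 tested genes with the element, in the list or not, 41.0% fell and 36.1% rose (median -0.12). A stretch from 2 of the fallers shows the element in capitals, on the opposite strand in both:
HSP90AA1, chr14:102087100-102087152, minus strand: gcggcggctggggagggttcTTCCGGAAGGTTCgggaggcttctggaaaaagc
HSPA8, chr11:123062159-123062211, minus strand: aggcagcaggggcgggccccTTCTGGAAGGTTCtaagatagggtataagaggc

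SR proteins, which mark exons for the spliceosome, mostly fell. Of 27 SR proteins and kinases tested of 28, 18 fell and 6 rose (median -0.68). SRSF2 (ENSG00000161547.17, chromosome 17, 76734115 to 76737374) stood at 852, 863 and 784 CPM in PdB and 108, 112 and 112 at recovery, a log2 change of -2.91 ± 0.051 (adjusted p = 1.4e-17). SRSF4 went from 319, 317 and 297 to 68.3, 71.3 and 68.8 CPM (-2.16 ± 0.051). SRSF1 and SRSF3 changed by -1.86 and -1.48. These 4 ended below DMSO, where SRSF2 stood at 235, 251 and 241 and SRSF4 at 90.8, 92.6 and 86.3 CPM and the means of SRSF1 and SRSF3 were 332 and 305, against 264 and 245 at recovery. SON, a scaffold of nuclear speckles, changed by -1.48, and CLK1, a kinase of SR proteins, by -0.83. SRPK1, another SR kinase, rose from 102, 107 and 111 to 166, 162 and 157 CPM (0.6 ± 0.048), with 325, 323 and 335 in DMSO.

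Of 28 hnRNP genes, which encode RNA-binding proteins that often oppose SR proteins, 18 fell and 8 rose (median -0.38). HNRNPDL went from 916, 926 and 847 to 231, 236 and 239 CPM (-1.93 ± 0.049) and HNRNPC from 1278, 1271 and 1190.2 to 355, 377 and 355 CPM (-1.78 ± 0.046). HNRNPUL2 rose from 104, 110.4 and 99.2 to 318, 323 and 317 CPM (1.61 ± 0.049) and PTBP3, a polypyrimidine tract binding protein, from 56.4, 54.2 and 61.4 to 161, 165 and 169 CPM (1.52 ± 0.058).

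The drug target complex moved both ways. Of 23 SF3B and U2 snRNP genes, 11 rose and 9 fell (median 0.04, or -0.01 with RLE factors, -0.03 with upper-quartile factors, but 0.31 when library totals were used). SF3B1, whose pocket PdB fills, fell from 528, 521 and 534 to 392, 376 and 398 CPM (-0.44 ± 0.042, adjusted p = 2.4e-08), and remained above DMSO at 257, 258 and 263. PHF5A, which lines the same pocket, fell from 60.99, 65.5 and 54.1 to 27.6, 27.2 and 24.7 CPM (-1.18 ± 0.086) and overlapped DMSO at 26.3, 28.8 and 23.5. DDX46, the helicase that remodels the U2 snRNP, fell from 246, 249.6 and 239 to 74.6, 78.8 and 78.6 CPM (-1.66 ± 0.051), below DMSO at 219.8, 238 and 216. SNRPA1, the U2 A′ protein, rose from 26.9, 30.1 and 29.9 to 103, 103 and 94.4 CPM (1.79 ± 0.064) and U2SURP, a U2-associated SR-like protein, from 29.3, 30.2 and 27.6 to 84.5, 87.3 and 90.7 CPM (1.59 ± 0.063). Against DMSO, 17 of the 23 members were higher at recovery and 4 lower.

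The list of 45 further core spliceosome genes had 19 rises and 22 falls (median -0.09, or 0.17 with library totals). LSM8, of the ring that binds U6 RNA, went from 6.32, 5.95 and 6.49 to 27.1, 30.2 and 30.6 CPM (2.23 ± 0.084), and PLRG1, of the PRP19 complex, from 28.7, 32.3 and 31.8 to 137, 132 and 133 CPM (2.12 ± 0.059). SNRPA, the U1 A protein, fell from 152, 159 and 154 to 60.8, 58.6 and 59.5 CPM (-1.38 ± 0.048). Of 20 genes of nonsense-mediated decay, which degrades transcripts with early stop codons, 11 rose and 5 fell (median 0.44). SMG9 rose from 55.8, 52.3 and 51.9 to 164, 160.4 and 160.1 CPM (1.6 ± 0.051), and SMG8, its partner in the SMG1 kinase complex, fell from 129, 131 and 121 to 49.8, 53.4 and 51.4 CPM (-1.3 ± 0.056). UPF1, the helicase of the pathway, changed by 0.67.

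POLR2A (ENSG00000181222.19, chromosome 17, 7484366 to 7514616), the largest subunit of RNA polymerase II, had the largest rise among the genes ranked at 100 CPM or more over both groups. The ranking covered changed genes whose groups did not overlap. It left out clone, locus and pseudogene-style symbols, with any symbol ending in P and a number. POLR2A stood at 50.6, 45.3 and 46.2 CPM in PdB and 687, 717 and 688 at recovery. The means differed 14.7-fold (3.88 ± 0.059, adjusted p = 2.9e-18), and every recovery library lay above every DMSO library (285, 262 and 254 CPM). VASP, an actin filament elongation factor, went from 22.7, 23.6 and 22.4 to 195, 187 and 181 CPM (3.04 ± 0.061), also above DMSO at 102, 108 and 116. Among the falls at such levels were MNT, a partner of MAX that opposes MYC, from 188, 192 and 178 to 24.2, 23.1 and 25.98 CPM (-2.93 ± 0.061), MAML2, a Notch coactivator (-2.82 ± 0.081), and NF2, which encodes merlin of the Hippo pathway, from 187, 193 and 177 to 27.3, 31.1 and 28.5 CPM (-2.68 ± 0.067).

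Nuclear pore and import genes mostly rose, 24 of 36 against 10 falls (4 with library totals), with a median of 0.48. NUP43, of the pore scaffold, went from 10.7, 12.7 and 13.1 to 48.1, 47.7 and 45.99 CPM (1.96 ± 0.080), and IPO7, an importin, from 111, 112 and 104.8 to 395, 389 and 373 CPM (1.82 ± 0.049). NUP210, a membrane nucleoporin, fell from 62.02, 62.8 and 74.3 to 16.9, 16.4 and 19.1 CPM (-1.93 ± 0.087), and NUP153, of the nuclear basket, from 592, 621 and 651 to 224, 221 and 229 CPM (-1.47 ± 0.046), overlapping DMSO at 220.3, 222 and 224.

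In homologous recombination, which repairs breaks from the sister chromatid, 25 of 43 genes rose and 8 fell (3 with library totals, 5 without PdB replicate 2 and 4 without recovery replicate 1; median 0.28). BRCA1 (ENSG00000012048.23, chromosome 17, 43044295 to 43170245), which promotes resection of DNA ends, went from 9.88, 8.88 and 7.17 to 41.3, 43.9 and 44.8 CPM (2.32 ± 0.093, adjusted p = 1.6e-13) and stayed below DMSO at 56.5, 59.6 and 55.4. BRCA2, a later factor of the same pathway, went from 13.6, 16.4 and 19.6 to 20.3, 21.3 and 23.7 CPM, a smaller rise (0.4 ± 0.12, adjusted p = 0.0075), with 38.3, 34.3 and 28.9 in DMSO. Both genes rose and both remained below their DMSO libraries. MRE11, the nuclease that starts resection, fell further, from 27.9, 32.1 and 27.7 to 19.3, 18.9 and 19.8 CPM (-0.6 ± 0.074), with 59.7, 55.8 and 55.3 in DMSO. Against DMSO, 23 of the 43 members were lower at recovery and 9 higher.

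Of 21 Fanconi anaemia genes, of crosslink repair, 12 rose and 7 fell (median 0.42). FANCL, the ubiquitin ligase subunit, went from 0.885, 0.906 and 0.711 to 8.79, 7.16 and 7.63 CPM (3.23 ± 0.16). FAAP100, of the core complex, fell from 58.9, 58.8 and 59.4 to 21.3, 19.2 and 20.4 CPM (-1.54 ± 0.064), and ERCC4, the XPF nuclease also listed under excision repair, from 20.5, 22.01 and 24.1 to 8.05, 8.101 and 7.71 CPM (-1.48 ± 0.097). Of 43 excision and mismatch repair genes, 24 rose and 12 fell (8 with library totals; median 0.41). PARP2, a sensor of strand breaks, went from 15.8, 15.6 and 12.2 to 56.9, 61.6 and 54.03 CPM (1.98 ± 0.092), MBD4, a DNA glycosylase, from 9.15, 8.53 and 7.44 to 29.2, 30.4 and 30.4 CPM (1.84 ± 0.095), and ERCC2, the XPD helicase, from 217, 220.0 and 194 down to 75.03, 80.8 and 76.4 CPM (-1.44 ± 0.057).

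End joining and break signalling leaned the other way, 13 of 22 falling and 7 rising (9 and 9 with library totals), with a median of -0.31. H2AX, the histone phosphorylated at breaks, whose gene has no intron, went from 650.4, 622 and 554 to 147, 146 and 144 CPM (-2.06 ± 0.054), below DMSO at 289.7, 296 and 298. SHLD2, of the shieldin complex, fell from 49.5, 54.9 and 43.00 to 19.5, 20.3 and 19.8 CPM (-1.31 ± 0.081). MDC1, which binds phosphorylated H2AX, rose from 38.95, 36.4 and 45.2 to 161, 151 and 164 CPM (1.98 ± 0.069) and XRCC4, the partner of the ligase of end joining, from 8.78, 7.76 and 7.17 to 22.3, 21.8 and 22.7 CPM (1.49 ± 0.099).

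The DNA damage checkpoint list of 24 had 14 rises and 6 falls (3 with library totals), with a median of 0.35. The list shares CDC25A, CDC25C, CDC25B, CLSPN, TOPBP1 and WEE1 with the division and replication lists. GADD45B, a stress-induced gene, fell from 447, 439.9 and 371 to 116, 117 and 114 CPM (-1.86 ± 0.066), still above DMSO at 43.9, 48.5 and 42.97. ATR, the kinase of stalled forks, fell from 27.3, 34.4 and 33.2 to 22.2, 20.1 and 22.6 CPM (-0.55 ± 0.088), below DMSO at 49.4, 47.7 and 44.1, and ATM, the kinase of double-strand breaks, changed by -0.46. MDM2, a ubiquitin ligase induced by DNA damage, went from 132, 134 and 125 to 107, 108 and 102 CPM (-0.31 ± 0.054), and was not called with library totals. SLFN11, which blocks stalled forks in cells under replication stress, fell from 10.2, 11.01 and 10.05 to 0.417, 0.431 and 0.4001 CPM (-4.64 ± 0.22, adjusted p = 1.5e-12). The level of SLFN11 at recovery was above the 0.249, 0.159 and 0.1300 CPM of DMSO but low in both.

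Cytosolic ribosomal protein genes fell almost without exception. Of 79, 75 fell and 0 rose (66 and 3 with library totals), with a median of -0.60, against 0.74 during PdB relative to DMSO. RPL30 went from 790.1, 839.7 and 764 to 323, 333 and 322 CPM (-1.29 ± 0.060) and RPL3 from 1169, 1179 and 1083 to 555, 545 and 510.0 CPM (-1.09 ± 0.048). The changes were narrow in range, and RPL39, RPL21, RPL11 and RPS13 were not called. Many of these genes have processed pseudogenes whose reads cannot be told apart here.

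Most nuclear genes of oxidative phosphorylation fell, 55 of 62 against 6 rises (median -0.52). UQCRQ, of complex III, went from 129, 137 and 121 to 47.3, 49.7 and 50.3 CPM (-1.39 ± 0.063) and CYC1, cytochrome c1, from 126, 126 and 130.4 to 55.99, 56.3 and 62.5 CPM (-1.13 ± 0.061). The rises included SDHD of complex II, from 56.6, 62.8 and 50.6 to 135, 133 and 121 CPM (1.19 ± 0.069). Of 15 mitochondrially encoded genes, which have no introns, 7 fell and 3 rose (2 and 7 with library totals; median -0.12, or 0.15 with them). MT-CO1, of complex IV, went from 13740.5, 12412 and 10353 to 8907, 8531 and 8303 CPM (-0.5 ± 0.085), and MT-RNR1, the small ribosomal RNA, rose from 870.2, 794 and 787 to 1174, 1136 and 1142 CPM (0.49 ± 0.048).

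Of 36 ribosome biogenesis genes, 15 rose and 16 fell (median -0.03, or 0.23 with library totals). RRS1 went from 244, 249.9 and 219 to 42.1, 46.7 and 42.1 CPM (-2.45 ± 0.076) and POLR1B, of RNA polymerase I, from 93.01, 91.9 and 89.9 to 43.3, 40.1 and 38.9 CPM (-1.17 ± 0.057), while UTP14A, of the small subunit processome, rose from 43.3, 41.4 and 35.5 to 138, 139 and 126 CPM (1.75 ± 0.070). Of 25 snoRNA host genes, 11 rose and 8 fell (4 with library totals; median 0.09). SNHG4 rose from 11.2, 10.2 and 11.2 to 53.6, 56.3 and 50.4 CPM (2.3 ± 0.085) and GAS5 from 114, 116 and 103 to 169, 172 and 149.7 CPM (0.56 ± 0.067), while SNHG16 fell from 619, 629 and 544 to 262, 272 and 248 CPM (-1.2 ± 0.056). Against DMSO 18 of the 25 were higher at recovery and 0 lower. Of 38 proteasome genes, 16 rose and 18 fell (10 with library totals; median -0.06, or 0.21 with them), from PSME1, an activator subunit, at -0.74 ± 0.066 to PSMC6, an ATPase of the base, at 1.69 ± 0.074.

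Of 32 immediate early genes, which respond first to growth signals, 15 fell and 7 rose (11 and 15 with library totals), with a median of -0.28. NR4A2, a nuclear receptor, went from 69.5, 69.98 and 38.97 to 9.91, 9.600 and 8.97 CPM (-2.65 ± 0.17), FOSL1, an AP-1 subunit, from 2051, 2107 and 1903 to 602, 636 and 558 CPM (-1.76 ± 0.054), and MYC from 499.6, 496 and 481 to 187, 186 and 210.4 CPM (-1.34 ± 0.051), with 177, 185 and 185 in DMSO. EGR1 fell from 94.8, 92.3 and 92.02 to 53.7, 52.1 and 48.6 CPM (-0.85 ± 0.069) and JUN from 178, 188 and 175 to 135, 134 and 139 CPM (-0.4 ± 0.049). FOS stood at 9.82, 8.63 and 7.57 CPM in PdB and 9.22, 9.54 and 8.68 at recovery and was not called (0.08 ± 0.13, adjusted p = 0.64), but was called as a rise with library totals (0.35, adjusted p = 0.0287). KLF2, a factor of quiescence, rose from 5.72, 4.99 and 5.78 to 20.4, 20.9 and 18.9 CPM (1.87 ± 0.092). An AP-1 site (TGACTCA) stood in 1 of 24 promoters of the list (4.17%), against 6.05% of all genes and 5.17% of those tested. A CRE (TGACGTCA) stood in 2 of 24 (8.33%), against 2.25% of all genes and 3.62% of those tested.

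Of 28 genes of MAPK feedback and EGFR ligands, 14 fell and 7 rose (12 and 13 with library totals). The median was -0.20, or 0.07 with library totals. PHLDA1 (-2.02) and the inhibitors SPRY1 (-1.76), SPRY2 (-1.58) and DUSP6 (-1.19) fell. The ligand EPGN fell from 3.19, 3.13 and 2.34 to 0.0642, 0.0319 and 0.222 CPM (-4.72 ± 0.58). AREG, a ligand of EGFR, rose from 8.78, 8.402 and 10.1 to 29.99, 31.4 and 38.1 CPM (1.87 ± 0.13) and EGFR itself changed by 0.78, still below its DMSO mean of 478 CPM at 215.

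Of 25 NF-kB and cytokine genes tested of 29, 9 rose and 4 fell (median 0.18), against 40.4% and 36.1% of protein-coding genes. NFKB2 rose from 20.7, 19.4 and 23.02 to 78.1, 83.4 and 86.1 CPM (1.97 ± 0.088), and PTGS2, cyclooxygenase 2, fell from 7.75, 8.295 and 5.34 to 1.99, 2.06 and 1.56 CPM (-1.93 ± 0.24). Interferon-stimulated genes had 23 rises and 10 falls of 43 (median 0.60). PARP14 went from 5.54, 4.299 and 7.63 to 36.4, 31.8 and 40.9 CPM (2.65 ± 0.15) and GBP1, a guanylate-binding protein, from 9.38, 10.9 and 15.8 to 71.6, 69.2 and 79.9 CPM (2.61 ± 0.13), above DMSO at 31.2, 28.8 and 32.9. STAT2 (1.12), IRF1 (1.3) and EIF2AK2, the PKR kinase (1.37), also rose. IFIT5 fell from 113, 115 and 98.5 to 25.5, 25.3 and 25.99 CPM (-2.09 ± 0.075) and ISG15 changed by -0.62, so the list held both directions.

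Of 30 YAP and TGF-beta target genes, 18 fell and 9 rose (median -0.48). NT5E, the CD73 ectonucleotidase, went from 574, 595 and 535 to 131, 124 and 125 CPM (-2.17 ± 0.050), with 642, 611 and 623 in DMSO. CCN1, a secreted YAP target, lost the most CPM of any gene after HSPA5 and MT-CO1, from 6775, 6873 and 6441 to 3309.6, 3342 and 3237 CPM (-1.02 ± 0.044), still above DMSO at 1801, 1999.6 and 1809. ID1, an inhibitor of differentiation, rose from 53.9, 52.5 and 47.2 to 151, 131 and 150.5 CPM (1.49 ± 0.075), and ANKRD1 from 349, 349 and 335 to 805, 786 and 763 CPM (1.19 ± 0.050).

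Cell death genes split evenly, with 13 rises and 13 falls among 30 tested of 32 (17 and 6 with library totals). BCL2L1 (ENSG00000171552.14, chromosome 20, 31664452 to 31723989), which encodes the survival protein BCL-XL, stood at 1516, 1430.2 and 1476 CPM in PdB and 352, 345 and 343 at recovery (-2.09 ± 0.041, adjusted p = 4.6e-17). Its recovery libraries lay below those of DMSO at 591, 601 and 609 CPM. MCL1, another survival gene, changed by -0.26 ± 0.046 (0.003 and not called with library totals) and stayed above DMSO. FADD, the adaptor of death receptors, fell from 176, 181 and 171 to 62.2, 61.8 and 57.8 CPM (-1.54 ± 0.052). CASP9, the caspase of the mitochondrial pathway, rose from 1.89, 1.39 and 1.36 to 6.82, 7.798 and 7.13 CPM (2.22 ± 0.18), and the pore former BAK1 changed by 1.45.

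Glycolysis and hypoxia genes mostly fell, 27 of 39 against 7 rises (median -0.58). LDHA, lactate dehydrogenase, had group means of 3095 CPM in PdB and 1306 at recovery (-1.25), TPI1 962 and 404 (-1.25), and GAPDH 4271 and 2014 (-1.08). In DMSO these means were 2105, 785 and 3321, above those at recovery. CA12 and CA9, carbonic anhydrases, fell from 8.19, 10.3 and 12.3 to 4.41, 2.97 and 3.76 CPM and from 1.54, 1.95 and 3.09 to 0.898, 0.718 and 0.874 CPM. ANGPTL4, a secreted inhibitor of lipoprotein lipase, rose from 0.496, 0.728 and 0.673 to 9.13, 10.01 and 11.2 CPM (4.0 ± 0.17). Against DMSO 31 of the 39 members were lower at recovery and 3 higher.

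Of 35 cholesterol and fatty acid synthesis genes, 21 fell and 10 rose (median -0.55). FADS1, a fatty acid desaturase, went from 83.3, 77.8 and 69.2 to 25.2, 23.01 and 24.9 CPM (-1.66 ± 0.069), with 128, 131 and 122 in DMSO, and ACACA, acetyl-CoA carboxylase, from 79.6, 74.96 and 78.1 to 27.8, 28.7 and 28.4 CPM (-1.45 ± 0.064). MVK, mevalonate kinase, rose from 1.56, 1.47 and 2.498 to 15.8, 12.5 and 12.3 CPM (2.88 ± 0.17) and HMGCS1, an early enzyme of the pathway, from 27.7, 24.6 and 31.7 to 36.6, 36.7 and 38.2 CPM (0.41 ± 0.091). Of 25 NRF2 and metallothionein genes tested of 26, 20 fell and 2 rose (median -0.67). MT2A, a metal-binding metallothionein, fell from 513, 529 and 520.1 to 113, 121 and 120.3 CPM (-2.14 ± 0.058), with 415, 461 and 496 in DMSO, and SRXN1, sulfiredoxin, from 565, 548 and 561 to 166, 168 and 175 CPM (-1.72 ± 0.046). The rises were both subunits of the enzyme that starts glutathione synthesis, GCLC (0.91 ± 0.067) and GCLM (0.56 ± 0.058).

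Of 45 extracellular matrix and integrin genes, 26 fell and 13 rose (median -0.71), and against DMSO 34 were lower at recovery and 5 higher. COL6A3, a collagen VI chain, went from 17.3, 20.3 and 27.8 to 1.68, 2.22 and 3.39 CPM (-3.15 ± 0.21), with 24.6, 19.6 and 28.4 in DMSO. ITGB1, the common integrin beta chain, had means of 1594 and 594 CPM (-1.42) and HSPG2, perlecan, 138 and 23.3 (-2.57). THBS1, thrombospondin 1, gained the most CPM of any gene, from 1069, 1080.3 and 1483 to 2325, 2314 and 2974 (1.07 ± 0.12), and replicate 3 was the highest of its group in PdB, recovery and DMSO (2168, 2265 and 2896). ITGA2 (2.48) and ITGA5 (1.91), integrin alpha chains, also rose.

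Markers of the line and of other cell types were read beside these genes. Of 18 mesenchymal and basal markers tested of 22, 12 fell and 4 rose, and their summed level was 7977 to 8070 CPM in PdB, 4932 to 5142 at recovery and 9539 to 9598 in DMSO. VIM went from 2260.2, 2218 and 2008 to 1102, 1102 and 1079 CPM (-0.98 ± 0.044), SNAI2, a repressor of epithelial genes, from 95.7, 96.2 and 89.7 to 11.5, 11.7 and 14.02 CPM (-2.92 ± 0.081), and LOXL2, a lysyl oxidase, from 364, 348 and 419 to 62.9, 62.8 and 81.5 CPM (-2.45 ± 0.089). SNAI1, a relative of SNAI2, rose from 3.699, 2.93 and 5.36 to 8.71, 7.91 and 8.74 CPM (1.08 ± 0.20). Of 17 luminal markers tested of 19, 8 rose and 5 fell, and 7 were at least 2-fold higher and 5 at least 2-fold lower. Their sums were 1261 to 1465 CPM in PdB, 1487 to 1710 at recovery and 1493 to 1754 in DMSO. TWIST1, a mesenchymal transcription factor, had 0 counts in all 9 libraries, and SPDEF, a luminal one, rose from 1.59, 1.81 and 1.65 to 11.5, 10.2 and 9.203 CPM. TFF1 went the other way (-1.46).

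Of 10 fibroblast and endothelial markers tested of 13, 8 rose and 0 fell (3 rises when genes averaging under 50 counts were left out). Their sum was 4.51 to 8.51 CPM in PdB, 33.7 to 38.3 at recovery and 19.8 to 24.2 in DMSO, and COL1A1, a collagen I chain, made up most of it with a mean of 23.9 CPM at recovery. DCN, FAP and CDH5 were the members with too few counts to be tested. They had 5, 1 and 0 counts in the PdB libraries together and 6, 5 and 10 at recovery. Of 7 leukocyte markers tested of 13, 0 rose and 1 fell (CD68), with sums of 125 to 142 CPM in PdB and 84.3 to 88.7 at recovery, and NKG7 had 0 counts in every group. The part of other cell types in the gene group results was not tested.

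Of 29 replication-dependent histone genes tested of 56, 4 rose and 3 fell (8 and 1 with library totals, 2 rises without recovery replicate 1, and 1 and 6 falls without PdB replicates 1 and 2). Their mRNAs mostly lack a poly(A) tail, the libraries were made from polyadenylated RNA, and the copies share reads, so their values are uncertain. H2BC15 rose from 0.4602, 0.835 and 1.04 to 2.18, 1.58 and 1.85 CPM (1.27 ± 0.36) and H2BC6 went from 1.24, 1.42 and 2.67 to 0.593, 0.478 and 0.889 CPM (-1.44 ± 0.39).

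The spread of single members within the main lists is shown in the strip plot of log2 changes. Division and replication genes reach beyond 3 on the rising side, and ER chaperones beyond -3 on the falling side. Ribosomal protein genes lie in a narrow band mostly below 0. Oxidative phosphorylation genes also lie mostly below 0, with 6 members at least 2-fold lower and 1 at least 2-fold higher. Homologous recombination and interferon genes are spread over both sides.

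**Figure D4:**
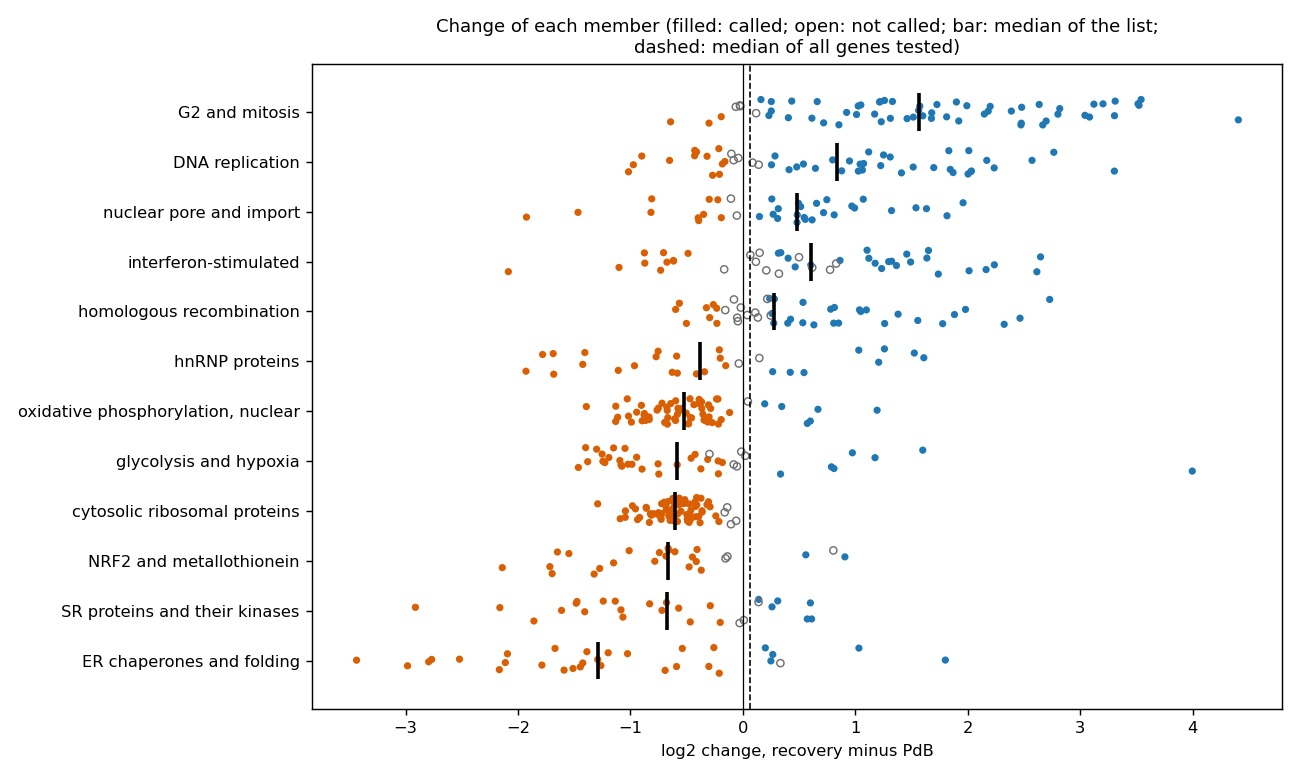
Log2 change, recovery minus PdB (x axis), of each tested member of 12 lists (rows). Filled points changed (blue rose, orange fell), open points were not called, the black bar is the median of the list and the dashed line the median of all genes tested, 0.06. The medians run from 1.57 in G2 and mitosis to -1.29 in ER chaperones and folding.

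The largest single rises of the ranking started from very low levels. Ranked were changed genes averaging 100 counts or more over the 6 libraries, with no overlap of the groups. Clone, locus and pseudogene-style symbols, with any ending in P and a number, were left out. CALCR (ENSG00000004948.16, chromosome 7, 93424487 to 93574730), the calcitonin receptor gene, stood at 0, 0.0711 and 0.154 CPM in PdB and 3.56, 2.902 and 2.82 at recovery (5.36 ± 0.51, adjusted p = 2.2e-08), with 1.01, 0.999 and 1.34 in DMSO. SYT17, a synaptotagmin, went from 0.0354, 0.142 and 0.135 to 4.25, 3.95 and 4.001 CPM (5.27 ± 0.38), with 0.718, 0.983 and 1.01 in DMSO. CCNA1, a cyclin best known from the germ line, went from 1.54, 0.711 and 0.826 to 24.1, 24.02 and 20.3 CPM (4.47 ± 0.21), with 4.61, 5.25 and 5.99 in DMSO. All 3 genes were above DMSO at recovery, after means below it at the end of PdB. PGM2L1 (4.66), TRIM45 (4.57) and FBXO48 (4.2) rose from under 1 CPM in each PdB library to 10.8, 9.63 and 12.4, 5.004, 4.67 and 4.68 and 2.94, 2.66 and 3.51 CPM, and were not called against DMSO. PIF1, a helicase of replication forks and telomeres, rose from 1.58, 1.69 and 1.499 to 31.5, 32.5 and 28.6 CPM, SPTB, beta spectrin, from 0.177, 0.515 and 0.327 to 6.96, 6.14 and 6.76 CPM and AGFG2 from 1.93, 0.728 and 1.67 to 27.4, 25.9 and 29.1 CPM.

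A pair of the rises concern non-coding transcripts. SNORD3B-2, a U3 snoRNA gene, went from 0.336, 0.178 and 0.442 to 9.86, 9.33 and 7.88 CPM (4.82 ± 0.27), with 0.146, 0.159 and 0.231 in DMSO, but U3 copies share reads and its value is uncertain. AGAP1-IT1, a transcript within an intron of AGAP1, went from 0.283, 0 and 0.135 to 2.95, 2.79 and 3.85 CPM (4.5 ± 0.58), with 0.0879, 0.0951 and 0.0289 in DMSO. It is annotated as sense intronic, on the strand of its host, so its reads cannot be told from those of unspliced AGAP1.

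The largest falls of the same ranking were mostly in genes that were nearly silent in DMSO. ZNF474 (ENSG00000164185.6, chromosome 5, 122129513 to 122153571), a zinc finger gene, stood at 4.21, 5.56 and 4.57 CPM in PdB and 0.01604, 0 and 0.104 at recovery (-6.79 ± 0.53), with 0.0439, 0.0476 and 0.0144 in DMSO. CCDC181 went from 6.71, 6.04 and 6.57 to 0.0642, 0.0957 and 0.0593 CPM (-6.43 ± 0.34), with 0.0439, 0.0476 and 0.116 in DMSO. SELPLG, the ligand of P-selectin, went from 74.03, 76.2 and 57.6 to 2.903, 2.85 and 3.35 CPM (-4.51 ± 0.14), with 1.36, 0.872 and 1.502 in DMSO. ZNF474 and CCDC181 overlapped DMSO at recovery, and SELPLG stayed above it. NXPE2 went from 8.71, 8.72 and 7.67 to 0.225, 0.255 and 0.148 CPM (-5.31 ± 0.27), and, with 0 counts in DMSO, remained at least 4.66-fold higher than a floor of 3 counts per library, which covers counting error only. CMYA5, a muscle gene, went from 50.5, 51.3 and 63.4 to 3.87, 3.89 and 3.96 CPM (-3.82 ± 0.13), with 0.234, 0.159 and 0.419 in DMSO, and FGF18, a growth factor, from 16.96, 19.9 and 17.8 to 1.15, 1.31 and 1.27 CPM (-3.87 ± 0.15), with 0.146, 0.238 and 0.173 in DMSO.

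ZNF233 (-4.74), TBX15 (-3.75) and MINAR1 (-4.07) completed the protein-coding falls named by that ranking. MINAR1 ended below DMSO, at 0.353, 0.335 and 0.252 against 2.27, 2.54 and 1.99 CPM. MIR6886 (-5.16) and RNU6-1079P (-4.31) are small RNA genes inside or like other genes, so their reads cannot be told apart from those of longer transcripts or other copies and do not measure the mature RNAs. In absolute terms the largest gains after THBS1 were MT-RNR2, PLEC, POLR2A and PRRC2A, and the largest losses HSPA5, MT-CO1, CCN1, EEF1A1 and ACTB. EEF1A1, the elongation factor of translation, went from 8795, 8845 and 8039 to 5384, 5565 and 5233 CPM (-0.67 ± 0.045), and ACTB, beta actin, from 8417, 8348 and 8125 to 5313, 5497 and 5549 CPM (-0.61 ± 0.034). MT-RNR2, the large mitochondrial ribosomal RNA, changed by 0.15 ± 0.054 (adjusted p = 0.024), with overlapping groups, and was not called with RLE factors (0.09, adjusted p = 0.150), without PdB replicate 3 (0.07, adjusted p = 0.111) or without recovery replicate 3 (0.15, adjusted p = 0.0509). Without PdB replicate 1 its change was 0.23. The nuclear non-coding RNAs NEAT1 and MALAT1 changed by 0.86 ± 0.072 and 0.85 ± 0.22, and the call of MALAT1, whose PdB libraries stood at 148, 159 and 345 CPM, was lost with DESeq2 (0.80, adjusted p = 0.054), while without PdB replicate 3 the change was 1.35.

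The change after the drug period differed with the number of introns in the longest annotated transcript. Of 530 protein-coding genes without introns, 17.2% rose and 53.0% fell, with a median log2 change of -0.48. With 1-2 introns the median was -0.21 (0.06 with library totals), with 3-5 introns -0.12 (0.14), with 6-10 introns 0.08, and with 11-20 introns 0.38. Of 1594 genes with more than 20 introns, 53.8% rose and 25.5% fell (median 0.46). During PdB relative to DMSO, a comparison that shares the PdB libraries and in which 70.1% of genes were called, the medians were 0.69 without introns and -0.93 with more than 20. At recovery relative to DMSO they were 0.23 and -0.44. The median of the mean CPM was 13.5 in genes without introns and 27.5 in genes with more than 20. Genes named above went both with and against these medians. H2AX and RRS1, without introns, fell, and KIF2C and TOP2A, with many, rose. POLA1 (36 introns, -0.97) and DDX46 (22 introns, -1.66) fell, however, and CDKN1A (2 introns, 3.25) rose. The naming rule picks large changes, so such genes do not stand for their class.

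By genomic span the median was -0.41 under 5 kb, -0.01 for 5-20 kb (0.26 with library totals), 0.16 for 20-50 kb, 0.25 for 50-100 kb and 0.18 over 100 kb. Within the 20-50 kb class genes with 1-2 introns had a median of -0.19 (0.07 with library totals) those with 11-20 introns of 0.51 and those with more than 20 of 0.37. Over 100 kb the medians were -0.28 with 3-5 introns and 0.48 with more than 20. Under 5 kb they were -0.59 without introns, -0.35 with 1-2, -0.43 with 3-5 and -0.10 with 6-10 introns (0.17 with library totals). Within a span class the medians thus tended to be higher in genes with more introns, without rising at each step.

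**Figure D5:**
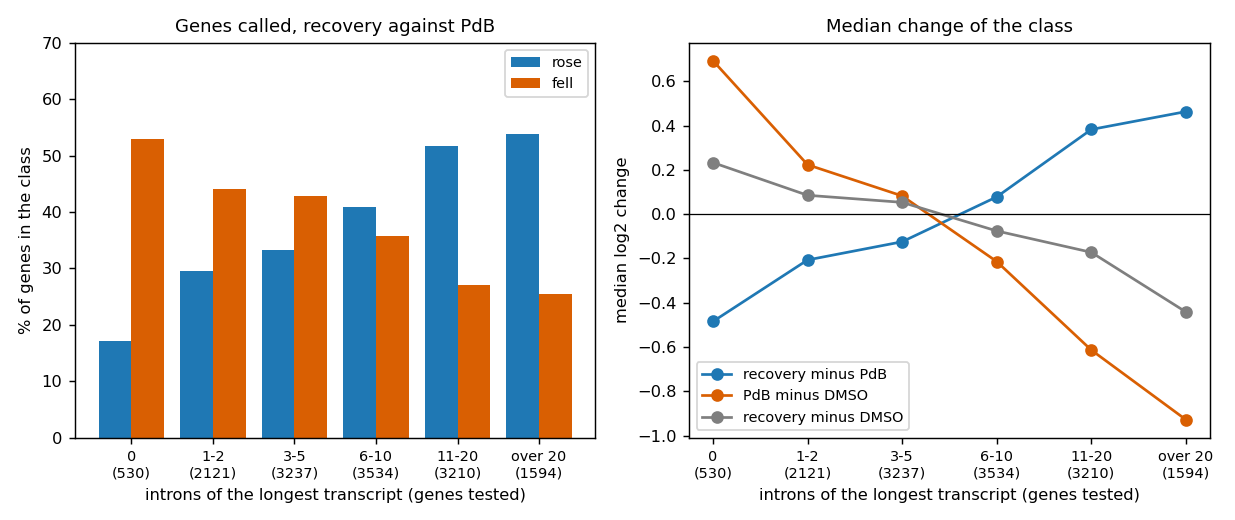
Protein-coding genes by the number of introns of the longest transcript (x axis, genes tested in brackets). The left panel gives the percent of each class that rose (blue) or fell (orange) between PdB and recovery, and the right panel the median log2 change of the class for recovery minus PdB (blue), PdB minus DMSO (orange) and recovery minus DMSO (grey). The share that rose climbs from 17.2% without introns to 53.8% above 20 introns. The blue and orange lines slope in opposite directions, and they share the PdB libraries with opposite sign.

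Of 14226 protein-coding genes tested 40.4% rose and 36.1% fell (median 0.09). Of 3769 lncRNA genes, 22.2% rose and 19.7% fell (median 0.08), with lower counts behind each. Of 269 snoRNA genes 15.2% rose and 33.5% fell (median -0.38), after a median of 2.19 for PdB relative to DMSO, and of 358 miRNA genes 22.9% rose and 30.2% fell (median -0.30). These are counts in libraries from polyadenylated RNA and do not measure mature snoRNAs or miRNAs. Of 257 sense intronic transcripts, 28.8% rose and 15.2% fell (median 0.60), and of 693 processed pseudogenes 13.3% rose and 25.7% fell (median -0.39). Pseudogene reads cannot be told apart from those of the parent genes, many of them ribosomal.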

How the data were processed

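Polyadenylated RNA of 9 libraries was analysed, 3 each from DMSO, the end of 16 h of 10 nM PdB, and 24 h of recovery. The deposited values are whole-number counts per gene, and the authors' tools, per the submitters' processing notes, were DESeq2 1.30.0, featureCounts 2.0.3, fastp 0.23.2, Picard and STAR 2.7.9a, with the human build hg38. The notes give no role for each tool, no strand setting and no treatment of reads with several matches, so overlapping, antisense and near-identical genes are uncertain.

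Genes passing filterByExpr were fitted on all 9 libraries, which share 1 estimate of the spread (common coefficient of biological variation 0.111), with TMM factors and the quasi-likelihood test of edgeR 4.0.16 (R 4.3.3), and p-values were adjusted over 20812 genes. Counts were simulated for the recovery against PdB comparison with 20812 genes, of which only 67, 67 and 66 were changed 1.5-fold, 2-fold and 4-fold. The changed genes were drawn from those averaging at least 50 counts. Of them 70.1%, 79.1% and 97.0% were called, and 3.53% of the calls were false. In the data 66.1% of the genes tested were called, so these rates need not hold there. Library pairs within a group differed by more than sampling noise (chi-square per degree of freedom 4.98 to 26.0), so none was counted as a duplicate.

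The 40 gene lists and the naming rule were chosen with earlier results of these data known. The rule named the 12 largest rises and falls among called genes averaging at least 100 counts with groups that did not overlap, the 6 largest each way at 100 CPM or more, the 5 largest gains and losses in mean CPM, the 2 largest rises and falls of each list, and a fixed set of genes of splicing, the cell cycle, stress and survival. The rankings at 100 counts and at 100 CPM left out clone, locus and pseudogene-style symbols. Symbols ending in P and a number were dropped with them, which also removed protein-coding genes such as NUP43. Genes of a list outside the rule were named for their roles, with their values already seen. Symbols came from the reference tables for 60696 of 60708 identifiers, and 1 list entry had no match. Intron numbers came from the annotation of GENCODE 29, which held 58440 of the identifiers. Promoters were those of 27305 genes in RefSeq (GRCh38.p14), of which 12392 were tested. Among those tested, 15.7% held the cell cycle homology region, 0.129% the ER stress response element, 1.45% the CARE element and 0.492% the heat shock element. Alternatives were other scalings, filters and thresholds, a test against a 2-fold change, DESeq2 1.42.0, the 6 libraries alone, a replicate block and leaving out each library. Standard errors include the spread between libraries.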

Additional observations from a re-analysis of the deposited data

How the results depend on the processing

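The count of changed genes between recovery and PdB, 13767, was 14016 with DESeq2, 13410 in a fit of the 6 libraries alone, 12001 at a threshold of 0.01 and 12931 to 14034 when each library was left out in turn. Tested against a 2-fold change, 4451 genes were called (2782 higher, 1669 lower), against 2903 for recovery and DMSO (1548 and 1355) and 5989 for PdB and DMSO (2679 and 3310). Under that test 18 replication genes and 5 nuclear pore genes rose, and 9 SR, 8 glycolysis, 4 oxidative phosphorylation and 2 ribosomal protein genes fell. With library totals, 1731 genes fell at least 2-fold.

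The replicate numbers were not used to pair libraries, since the labels do not say that a number marks a shared source. Same-numbered libraries had correlations of deviations of 0.0153, 0.0226 and 0.0435, each the highest of its recovery library, which is a hint from the data only. With a replicate block 13871 genes were called.

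Medians near 0 changed sign with the scaling. With library totals they were 0.0788 for dNTP synthesis, 0.1738 for other core spliceosome, 0.0689 for MAPK feedback, 0.2348 for ribosome biogenesis, 0.1483 for mitochondrially encoded genes, 0.2118 for proteasome, 0.1558 for histones, 0.1584 for pseudogenes and 0.2674 for antisense genes. They were also 0.0616 with 1-2 introns, 0.143 with 3-5 introns, 0.2554 at 5-20 kb, 0.1719 with 6-10 introns under 5 kb, 0.0679 and 0.1566 with 1-2 and 3-5 introns at 20-50 kb, and 0.1411 with 6-10 introns over 100 kb. With upper-quartile factors they were -0.0123 for all genes, -0.0314 for SF3B and U2 genes, -0.068 for the integrated stress response and -0.002 for lincRNA, and with RLE factors -0.0097 and -0.0456 for the middle pair. Library totals leave out the TMM factors, 0.883 to 0.923 in PdB and 1.08 to 1.09 at recovery, whereas RLE and upper-quartile scaling put other factors in their place.

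Single genes near 0 also turned. CDK1 was 0.2457 with library totals and -0.0927 to 0.0606 when a library was left out, and FOS was -0.0079 with a mean of at least 50 counts and -0.0115 to 0.1771 when a library was left out. MCL1 was 0.0031 and MKI67 0.0727 with library totals. The test against a 2-fold change ended the call of 65 of the 209 named genes called. Among the other alternatives, ATF4, BTC, CCNB1, FOXM1, H3C12, H4C12, MALAT1, MCL1, MDM2, MKI67 and MT-RNR2 lost the call in at least 1, and CDK1 and FOS (0.3457) gained it with library totals. Depth limits genes of few counts, such as the 123 tested genes with no count in PdB, whose fold has no upper bound.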

Other observations

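PLEC (31 introns) and PRRC2A (30 introns) were among the 5 genes that gained the most CPM, as was MT-RNR2, which has no intron. CPM is not divided by transcript length, so a ranking by gain in CPM favours long transcripts. PLEC, which encodes the cytolinker plectin, stood at 1152, 1099 and 1235 CPM at the end of PdB and 1799, 1799 and 1859.7 at recovery (0.65 ± 0.052 on the log2 scale), with 2572, 2225 and 2342 in DMSO. PRRC2A went from 292, 314 and 268 to 891, 910.2 and 893 CPM (1.62 ± 0.051), with 1046, 1032 and 1026 in DMSO. In both genes every recovery library lay above every PdB library and below every DMSO library.

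Some of the genes tested had no count in one of the groups. Of the tested genes, 123 had no count in any PdB library and 118 of these rose, against 34.6% of all genes tested. In the recovery libraries 8 had no count, and 8 of these fell, against 31.5% of all. Such genes passed the filter only through counts in other groups. Their calls were therefore largely set by how they were picked and are not a result about them. No fold is given for them.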
